A study of Nicotiana tabacum with 9 samples.

Results

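The 3 genes described here encode enzymes named for hormone and oxylipin metabolism in tobacco leaves: 1-aminocyclopropane-1-carboxylate oxidase (ACC oxidase, Nitab4.5_0000091g0420), GH3.10 (Nitab4.5_0002370g0050) and probable linoleate 9S-lipoxygenase 5 (Nitab4.5_0000137g0100). They were chosen by gene identifier and are 3 of the 123 genes in the table. Leaves were taken at the seedling stage from the cigar tobacco cultivar H382 (Nicotiana tabacum, an allotetraploid) grown at 50, 100 or 200 µmol m-2 s-1 of light, here called light 50, light 100 and light 200. Each light intensity had 3 RNA-seq libraries, which the series' design text calls biological replicates. All 9 libraries share cultivar, organ and stage, and no other treatment is labelled. Library totals ran from 12395758 to 16603534 reads, and every gene of the table had at least 8 reads in every library.

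Ethylene is a gaseous hormone of growth, stress and senescence. Plants make it from methionine by way of 1-aminocyclopropane-1-carboxylate (ACC), and ACC oxidase carries out the last step, releasing cyanide as a by-product. GH3 enzymes join hormone acids to amino acids: some conjugate auxin, which removes it from the active pool, and others conjugate jasmonic acid, which activates it. Lipoxygenases add oxygen to polyunsaturated fatty acids. The 9S-lipoxygenases start a branch of defence-related oxylipins distinct from the branch that leads to jasmonate.

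The annotations in the table bear on what each name means. ACC oxidase (chromosome Nt14, 98536509 to 98538581, minus strand, length 861 bases) was named by its best Swiss-Prot match, from kiwifruit, and its KEGG entry is also an ACC oxidase. GH3.10 (Nt10, 91583209 to 91586423, minus strand, 1743 bases) was named after an Arabidopsis protein listed as an indole-3-acetic acid-amido synthetase, whereas its KEGG entry names a jasmonic acid-amido synthetase of the JAR1 type. In Arabidopsis, GH3.10 is known as DFL2 and has also been characterised as a jasmonic acid-amido synthetase. The table therefore does not settle whether this gene conjugates auxin. The lipoxygenase (Nt19, 117923146 to 117941219, minus strand) matched a potato 9S-lipoxygenase and, in KEGG, the tomato gene TomloxE. Its length of 5079 bases is 4.58 times the median of the table and only 1 of the 123 genes is longer. All 123 lengths are multiples of 3, so they are coding lengths, and this one would encode 1692 amino acids. Its 18 listed molecular functions include glycosyl hydrolase activity, which is not a lipoxygenase function. Reads of a second gene inside this model cannot be told apart from those of the lipoxygenase.

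All 3 genes were higher at light 200 than at light 50, as were 47.2% of the 123 genes. ACC oxidase was about 5 times as high, GH3.10 about 2 times and the lipoxygenase 1.8 times. In each of the 3 the larger share of the log2 change, as estimated, lay between light 50 and light 100. Over the 58 genes called higher at light 200 than at light 50 the median share there was 67.2%, above the 60.2% of the lipoxygenase. The lipoxygenase had the smallest estimated change of the 3 and the one spread most evenly over both doublings of light. Levels are given as CPM, reads per 1000000 of a library size set by the authors' size factors. Changes were tested with the quasi-likelihood test of edgeR, p-values were adjusted by Benjamini-Hochberg over all 123 genes, and an adjusted p under 0.05 was called.

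Markers for the labelled organ were looked up by product name. All 17 leaf mesophyll markers (antenna, photosystem and Rubisco activase genes) had reads in the libraries. So did every gene of this selected table, so their presence is no check of the organ. Their summed level was 42862 to 51676 CPM at light 50, 34599 to 38733 at light 100 and 22458 to 28198 at light 200. All 17 fell from light 50 to light 200, as did 52% of the 123 genes. The single name match for dividing cells, a tubulin beta-1 chain (Nitab4.5_0001951g0080), was at 79.1 to 126.7 CPM at light 50 and 28.6 to 38.2 at light 200. The single match for root nicotine synthesis, berberine bridge enzyme-like 8 (Nitab4.5_0000009g0310), was at 0.606 to 1.32 and 3.98 to 7.50 CPM. Their annotations tie neither gene to a cell type, so these 2 do not bear on the organ. The part of these shifts in the changes of the 3 enzymes was not tested. In bulk leaf RNA, a change in the number of cells of a type and a change in RNA per cell cannot be told apart.

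ACC oxidase had 116.1, 96.9 and 84.8 CPM in the 3 libraries of light 50. It had 343.4, 389.3 and 332.4 CPM at light 100. At light 200 it had 568.0, 500.0 and 433.4 CPM. The 3 groups did not overlap: the lowest light 100 library was 2.86 times the highest light 50 library, and the lowest light 200 library was 1.11 times the highest light 100 library. Such a separation upwards was shown by 39.8% of the 123 genes for light 100 over light 50, by 29.3% for light 200 over light 100 and by 47.2% for light 200 over light 50. These values rest on 1229 to 1438 reads per library at light 50 and on 7410 to 8861 at light 200. The group means were 99.3 ± 15.8, 355.1 ± 30.2 and 500.4 ± 67.3 CPM (SD, n = 3).

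GH3.10, the enzyme of uncertain acid substrate, was measured at much lower counts. It had 6.51, 2.16 and 2.90 CPM at light 50, from 74, 32 and 42 reads. At light 100 it had 9.06, 7.52 and 6.07 CPM. At light 200 it had 8.08, 7.89 and 8.79 CPM. Light 50 replicate 1 stood above the other light 50 libraries and above the lowest light 100 library, so light 50 and light 100 overlapped, as did light 100 and light 200. Light 50 and light 200 did not overlap, the lowest light 200 library being 1.21 times the highest light 50 library. Such an upward separation was shown by 47.2% of all genes. The standard deviation was 60.5% of the mean at light 50, 19.8% at light 100 and 5.74% at light 200. Light 50 replicate 1 was also the library with the fewest reads in total, 12395758, and the part of this in its GH3.10 level was not tested.

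The lipoxygenase, which opens the 9-oxylipin branch, had 29.9, 29.4 and 28.7 CPM at light 50. In the light 100 libraries it had 42.9, 42.1 and 40.4 CPM. In those of light 200 it had 52.9, 43.9 and 61.5 CPM. The libraries of light 50 lay within 1.04 times of each other, those of light 100 within 1.06 times and those of light 200 within 1.40 times. The 3 groups did not overlap, although light 200 replicate 2 was only 1.02 times the highest light 100 library. Of all genes, 39.8% separated upwards for light 100 over light 50, 29.3% for light 200 over light 100 and 47.2% for light 200 over light 50. The counts behind these values were 340 to 437, 571 to 666 and 650 to 1078 reads.

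**Figure D1:**
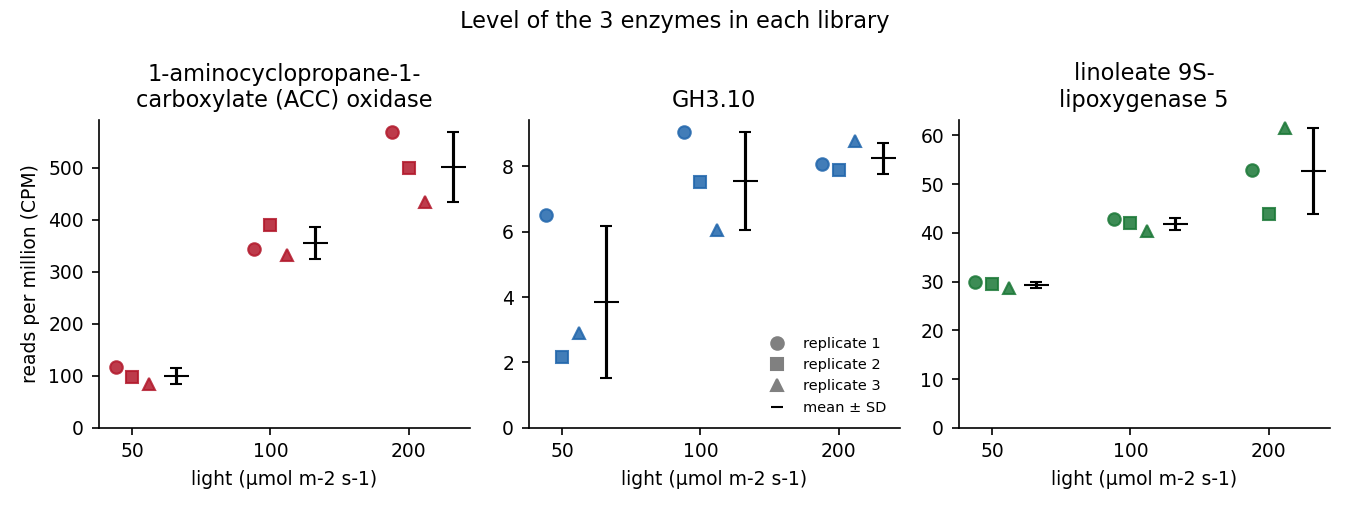
CPM (linear axes from 0, a separate scale for each gene) in the 9 libraries by light intensity, with marker shape giving the replicate number and bars the mean ± SD of 3 libraries. ACC oxidase and the lipoxygenase separate by light intensity without overlap, while 1 light 50 library of GH3.10, at 6.51 CPM, lies within the range of light 100. Of all genes, 39.8% separate upwards for light 100 over light 50 and 29.3% for light 200 over light 100.

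Levels of different genes were compared per length, as the authors' FPKM values. ACC oxidase had 109.3 ± 14.0 FPKM at light 50 and 612.7 ± 68.4 at light 200 (SD, n = 3). The lipoxygenase had 5.40, 5.60 and 5.48 FPKM in the light 50 libraries and 10.8, 8.98 and 13.2 in those of light 200. GH3.10 had 2.08 ± 1.19 FPKM at light 50 and 5.01 ± 0.43 at light 200. The order ACC oxidase, lipoxygenase, GH3.10 held within each light intensity with no overlap of libraries, on FPKM that used a length of 5079 bases for the lipoxygenase. By mean FPKM, 40 genes of the table lay above ACC oxidase at light 50 and 18 at light 200, while 120 and 113 lay above GH3.10 and 115 and 110 above the lipoxygenase.

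The comparison of light 200 with light 50 asks what a 4-fold range of light does to these transcripts. ACC oxidase rose 5.04-fold (95% confidence interval 3.92 to 6.50), a log2 change of 2.33 ± 0.17 (SE; edgeR adjusted p = 1.73e-07). GH3.10 rose 2.19-fold (1.31 to 3.65; adjusted p = 0.00621, edgeR). The lipoxygenase rose 1.80-fold (1.43 to 2.26; adjusted p = 0.000187, edgeR). So 3 of 3 were called higher, against a background of 47.2% of the 123 genes called higher and 52% called lower. The authors' deposited table marks 122 of its 123 genes as changed in this comparison, so a call here is no independent evidence of a light response. By log2 change ACC oxidase ranked 11 of 123, GH3.10 ranked 32 and the lipoxygenase 45. The authors' deposited table gives log2 changes of 2.33, 1.10 and 0.84 for the 3 genes, with adjusted p-values of 2.48e-27, 0.0110 and 0.000257.

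The comparison of light 100 with light 50 covers the lower doubling of light. ACC oxidase rose 3.58-fold (95% confidence interval 2.79 to 4.59; edgeR adjusted p = 4.27e-06), which was the sixth largest log2 change of the table and ranked 2 by p. GH3.10 rose 1.99-fold (1.19 to 3.35; adjusted p = 0.0202, edgeR) and the lipoxygenase 1.42-fold (1.13 to 1.79; adjusted p = 0.0106, edgeR). All 3 were called, against 42.3% of genes called higher and 40.7% called lower. The selected genes and the light 50 libraries are those of the comparison above, so these calls are no independent evidence of a light response either. The 52 higher and 50 lower genes became 58 and 13 with TMM scaling, 55 and 29 with median centring, and 32 and 63 when every library was given the same median level. The GH3.10 call was lost in 3 of the 9 fits that left out 1 library: without replicate 2 of light 50 (edgeR adjusted p = 0.0673), replicate 3 of light 50 (0.0681) or replicate 1 of light 100 (0.0712). Its log2 change of 0.996 became 1.57 without light 50 replicate 1. The authors' deposited table, whose adjustment covered at least 30470 genes, marks ACC oxidase (adjusted p = 1.38e-24) and not GH3.10 (0.278) or the lipoxygenase (0.176). It marks 23.6% of the 123 genes as higher and 12.2% as lower.

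The comparison of light 200 with light 100 covers the upper doubling. ACC oxidase rose 1.41-fold (95% confidence interval 1.11 to 1.79; edgeR adjusted p = 0.0231). The lipoxygenase was at 1.26 times its light 100 level (1.01 to 1.58; adjusted p = 0.0651, edgeR) and GH3.10 at 1.10 times (0.675 to 1.78; adjusted p = 0.712, edgeR), and neither was called. The lipoxygenase call depended on the scaling: it was called with TMM (edgeR adjusted p = 0.0287), RLE (0.00800), library totals (0.0287) and median centring (0.0164), and not with equal median levels (0.603). Except for library totals, these scalings were computed on the 123 selected genes alone and take selected genes as their reference. The number of scalings that call the lipoxygenase is therefore not read as support for a rise. The intervals given above still allow a change of up to 1.58-fold for the lipoxygenase and 1.78-fold for GH3.10. One call in 3 compares with 21.1% of genes called higher and 39% called lower. The selected genes and the libraries are those of the comparisons above, so the ACC oxidase call here is no independent evidence of a light response either. The 26 higher and 48 lower genes became 45 and 17 with RLE scaling, 43 and 36 with TMM, 42 and 42 with library totals, 43 and 26 with median centring, and 14 and 56 with equal median levels. Leaving out replicate 1 of light 100 (edgeR adjusted p = 0.0570), its replicate 3 (0.0852) or replicate 1 of light 200 (0.0888) ended the ACC oxidase call, and so did equal median levels (log2 change 0.26, adjusted p = 0.163, edgeR). Leaving out replicate 2 of light 200 brought the lipoxygenase under the threshold (adjusted p = 0.0414, edgeR). In the authors' deposited table ACC oxidase is marked with an adjusted p of 0.0482, and the other 2 are not (11.4% of genes are marked higher and 20.3% lower).

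**Figure D2:**
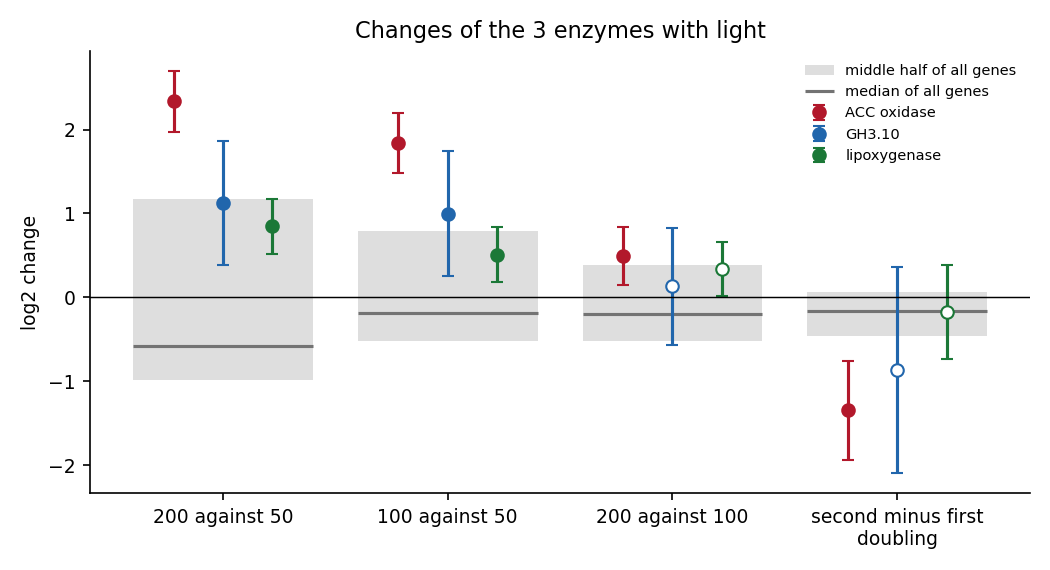
Log2 changes of the 3 enzymes with 95% confidence intervals (edgeR) for the 3 pairs of light intensities and for the second doubling minus the first; closed points have an adjusted p under 0.05. Grey boxes span the quartiles of all 123 genes and grey lines their median; ACC oxidase lies above the box for all 3 pairs (2.33, 1.84 and 0.50) and GH3.10 for 100 against 50 (0.996), and both lie below it for the difference of doublings (-1.34 and -0.86).

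The change in the upper doubling minus that in the lower one, on the log2 scale, was tested directly. It was -1.34 ± 0.27 for ACC oxidase (SE; edgeR adjusted p = 0.0189), -0.86 ± 0.57 for GH3.10 (adjusted p = 0.513, edgeR) and -0.17 ± 0.26 for the lipoxygenase (adjusted p = 0.791, edgeR). The 95% interval for GH3.10, from -2.09 to 0.36, includes the ACC oxidase value. ACC oxidase was 1 of 3 genes called, or 2.44% of the table, all negative, and the median of all genes was -0.17. That count was not stable: it was 23 with TMM, 9 with DESeq2 and 14 without replicate 1 of light 50. For ACC oxidase the difference was not called without light 100 replicate 2 (adjusted p = 0.144, edgeR) or light 200 replicate 2 (0.0618). For GH3.10 it was called only without light 50 replicate 1 (-1.44, adjusted p = 0.0425, edgeR), among the fits that left out 1 library. Of the log2 change from light 50 to light 200, 78.8% fell in the lower doubling for ACC oxidase, 88.3% for GH3.10 and 60.2% for the lipoxygenase, beside a median of 67.2% over the 58 genes called higher.

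A change of library scaling moves the log2 changes of all genes alike, so the members were also set against the median of the table. For light 200 against light 50 that median was -0.58 with the authors' factors. It was higher by 0.43 with TMM, by 0.29 with RLE, by 0.30 with median centring and by 0.15 with library totals, and lower by 0.50 with equal median levels, a scaling added after the data were seen. Relative to that median, ACC oxidase was higher by 2.91 to 2.92 on the log2 scale over the 6 scalings, GH3.10 by 1.71 to 1.74 and the lipoxygenase by 1.43 to 1.45. These ranges are narrow because each scaling shifts a gene and the median together, so they are no test of the result. The median is that of a selected table and is not a reference of unchanged genes. With equal median levels the log2 changes themselves were 1.83 for ACC oxidase, 0.66 for GH3.10 and 0.36 for the lipoxygenase, and the last 2 were no longer called (edgeR adjusted p = 0.0868 and 0.110). The 3 genes had a positive change from light 50 to light 200 under all 6 scalings.

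**Figure D3:**
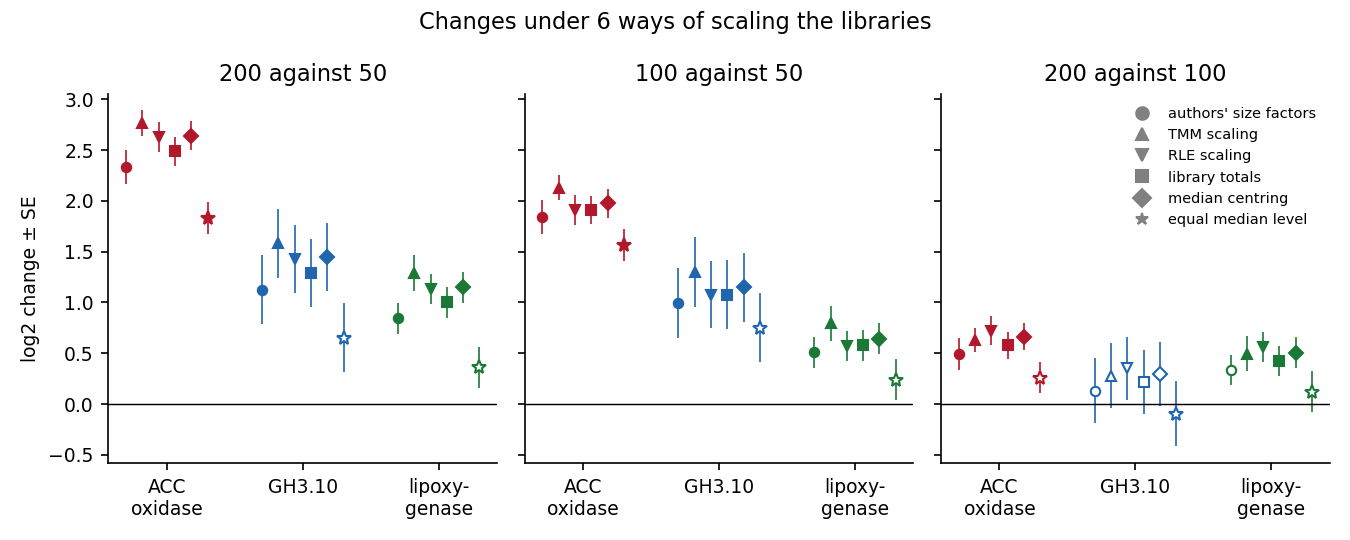
Log2 changes ± SE of the 3 enzymes (edgeR) under 6 ways of scaling the libraries, with closed markers for an adjusted p under 0.05. For 200 against 50, ACC oxidase runs from 1.83 to 2.76, GH3.10 from 0.66 to 1.58 and the lipoxygenase from 0.36 to 1.29; the lowest value of each comes from equal median levels.

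The ratio of 2 genes within a library does not depend on any scaling. The log2 ratio of ACC oxidase to lipoxygenase reads was 1.75 ± 0.20 at light 50, 3.08 ± 0.11 at light 100 and 3.25 ± 0.38 at light 200 (SD, n = 3). Every library of light 100 and light 200 was above every library of light 50, while light 100 and light 200 overlapped. An exact two-sided permutation test over the 1680 assignments of libraries to groups gave p = 0.0179, or 0.0536 adjusted over the 3 ratios, which misses the threshold. The ratio of ACC oxidase to GH3.10 was 4.84 ± 0.67, 5.57 ± 0.29 and 5.91 ± 0.26 (exact permutation p = 0.0464, adjusted 0.0696). The ratio of GH3.10 to lipoxygenase was -3.09 ± 0.81, -2.49 ± 0.25 and -2.66 ± 0.17 (exact permutation p = 0.375, adjusted 0.375). The smallest p this design allows is 0.00357. Unequal change of the 3 genes was thus not called in the full set of libraries. Without replicate 3 of light 200, whose ratio of 2.82 was the lowest of that group, the adjusted p for ACC oxidase to lipoxygenase was 0.0107 (exact permutation). It was 0.0268 without replicate 1 or replicate 2 of light 50 and 0.0429 without replicate 2 of light 100 (exact permutation). The adjusted p was also 0.0268 (exact permutation) for GH3.10 to lipoxygenase without replicate 1 of light 50, and for ACC oxidase to GH3.10 without replicate 2 of light 50. Of the 9 fits with 1 library left out, 4 were thus under the threshold for ACC oxidase to lipoxygenase and 1 for each other ratio. The remaining fits missed it. The highest adjusted p was 0.0964 for ACC oxidase to lipoxygenase, 0.155 for ACC oxidase to GH3.10 and 0.793 for GH3.10 to lipoxygenase (exact permutation).

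**Figure D4:**
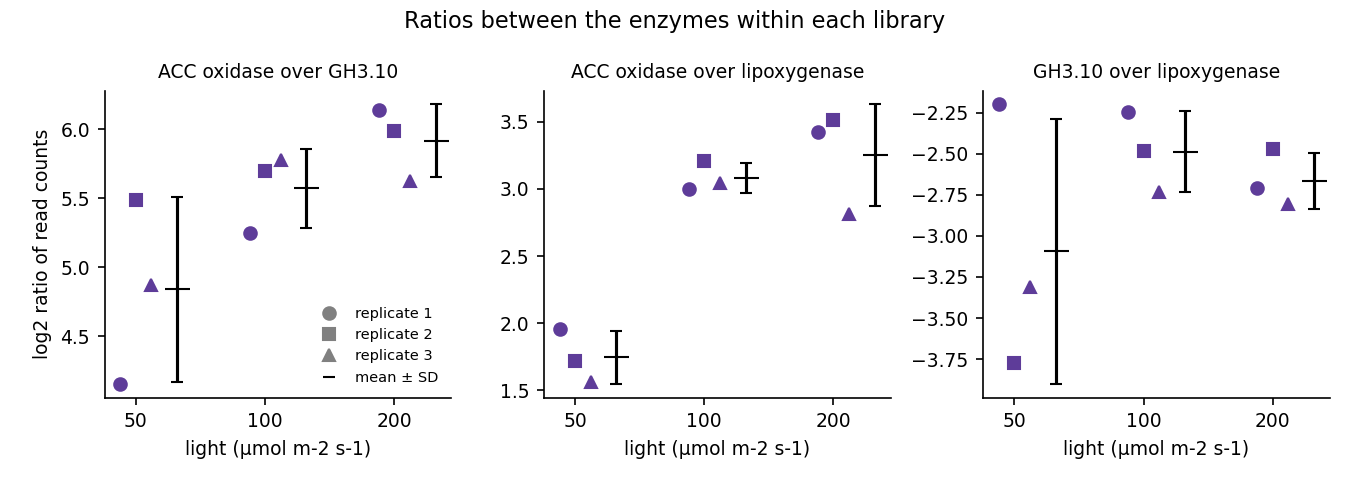
Log2 ratio of read counts between each pair of the 3 enzymes in each library (points, shape by replicate number) with the mean ± SD of 3 libraries, by light intensity. The ratio of ACC oxidase to lipoxygenase is 1.56 to 1.96 at light 50 and 2.82 to 3.51 at light 100 and light 200.

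Genes of the same pathways were looked up in the table by product name. The ethylene list found ACC oxidase and an ACC oxidase homolog (Nitab4.5_0002015g0090, Nt8, 104191845 to 104195175), whose KEGG entry names it a 2-oxoglutarate-dependent dioxygenase of the LeODD type, so that its name does not show ACC oxidase activity. Both rose from light 50 to light 200, as did 47.2% of the table, and from light 50 to light 100, as did 42.3%. The homolog had 42.7, 24.1 and 24.0 CPM at light 50. It had 124.7, 92.1 and 57.8 CPM at light 100, and the light 200 libraries, with 78.8, 81.2 and 73.1 CPM, lay within that range. It rose by a log2 change of 1.60 ± 0.28 in the lower doubling (SE; edgeR adjusted p = 0.000461) and had one of -0.24 ± 0.27 in the upper (adjusted p = 0.449, edgeR). The difference between its doublings, -1.84 ± 0.46, missed the threshold (adjusted p = 0.0502, edgeR) in the fit that called 3 genes of the table. Among the fits that left out 1 library, it was called only without light 50 replicate 1 (adjusted p = 0.0140, edgeR) or light 100 replicate 3 (0.0127). Those 2 fits called 14 and 5 genes of the table. With the replicate number as a block, where 6 genes were called, it was called as well (adjusted p = 0.0221, edgeR).

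The auxin list held GH3.10 and no other gene by meaning, since the 2 further text matches were beta-glucosidases of the name BoGH3B. The oxylipin and jasmonate list held the lipoxygenase alone, and the list for fatty acid supply held 0 genes. The list of other hormones held 1 gene, strigolactone esterase D14 (Nitab4.5_0002038g0020), whose KEGG entry names the related karrikin-receptor esterase KAI2. It fell from 6.51 ± 1.40 CPM at light 50 to 2.18 ± 0.56 at light 200 (SD, n = 3), a log2 change of -1.58 ± 0.29 (SE; edgeR adjusted p = 0.000207). In this comparison 52% of all genes were called lower, and the esterase rests on only 27 to 110 reads per library.

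Genes were also matched to a list of enzyme names linked to the removal of cyanide, the by-product of ACC oxidase. Of the matches, only the L-3-cyanoalanine synthase has a name that refers to cyanide. Cyanide removal by the other genes was not tested, and the list median does not measure it. All 3 genes of that list fell from light 50 to light 200, with a median log2 change of -1.74 beside -0.58 over all genes and 52% of genes called lower. A bifunctional mitochondrial enzyme, L-3-cyanoalanine synthase/cysteine synthase 2, joins cyanide to cysteine; its gene (Nitab4.5_0000583g0180) went from 96.9 ± 16.2 to 29.0 ± 4.99 CPM (log2 change -1.74 ± 0.18, SE; edgeR adjusted p = 2.80e-06). The chloroplast cysteine synthase (Nitab4.5_0000013g0360) had a log2 change of -0.59 ± 0.14 (adjusted p = 0.00118, edgeR), not called with TMM scaling. Thiosulfate sulfurtransferase 16 (Nitab4.5_0001696g0140), named after enzymes that can turn cyanide to thiocyanate, had one of -2.28 ± 0.48 (adjusted p = 0.000524, edgeR). Its light 200 libraries were far apart, at 46.7, 67.1 and 206.0 CPM, and without replicate 3 of light 200 the log2 change was -3.19 (adjusted p = 8.78e-06, edgeR).

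Further hormone enzymes were picked after the product names had been seen. UDP-glycosyltransferase 74E2, which in Arabidopsis adds glucose to the auxin indole-3-butyric acid, had 2 copies in the table and both rose from light 50 to light 200, beside 47.2% of genes called higher. The copy on Nt15 (Nitab4.5_0001704g0090) went from 175.4 ± 35.2 to 439.4 ± 129.4 CPM and the copy on Nt20 (Nitab4.5_0002356g0020) from 12.7 ± 1.83 to 30.8 ± 3.81 CPM (SD, n = 3). Reads of near-identical copies of such families cannot be assigned to a copy with certainty. On the route to abscisic acid 3 genes were picked and all 3 fell, beside 52% of the 123 genes called lower. ABA DEFICIENT 4 (Nitab4.5_0000912g0240), needed for neoxanthin formation in Arabidopsis, had a log2 change of -1.88 ± 0.24 (SE; edgeR adjusted p = 1.27e-05) and xanthoxin dehydrogenase (Nitab4.5_0002812g0020) one of -0.75 ± 0.19 (adjusted p = 0.00176, edgeR; not called with TMM). Zeaxanthin epoxidase (Nitab4.5_0002016g0120) went from 1064 ± 145 to 667.3 ± 29.1 CPM (SD, n = 3; edgeR adjusted p = 0.000276).

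**Figure D5:**
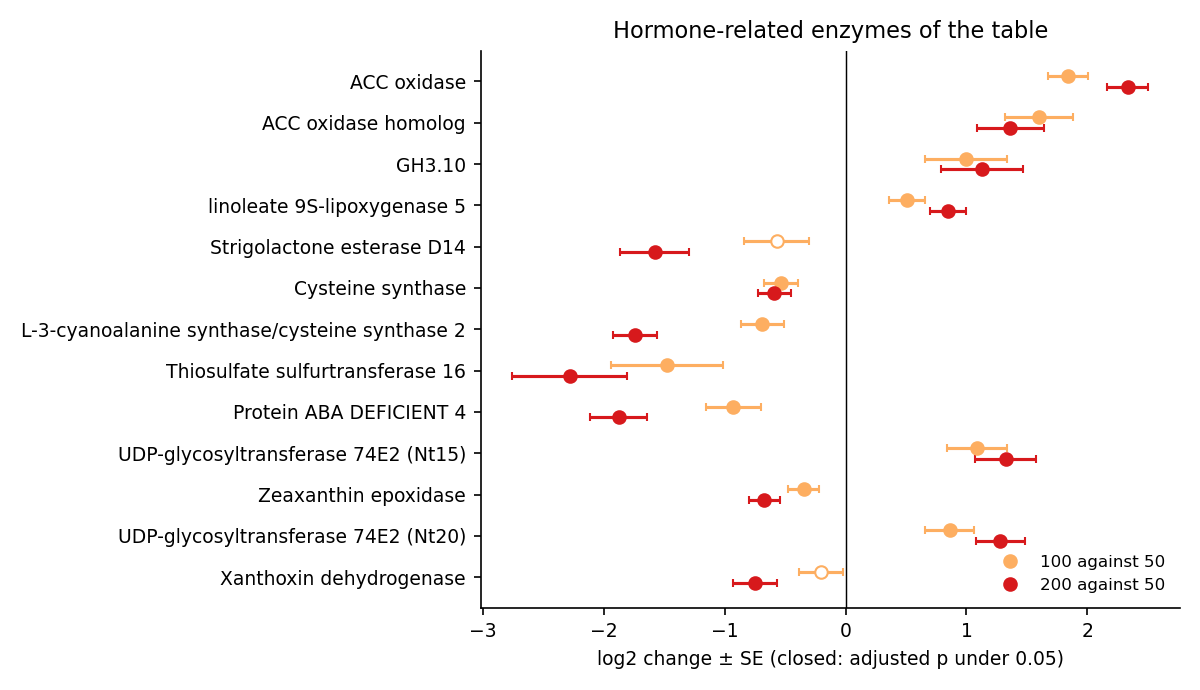
Log2 changes ± SE (edgeR) of 13 genes of the table, matched by name to the hormone and cyanide lists or picked later, for light 100 and light 200 against light 50. Closed points have an adjusted p under 0.05, and the 5 lowest rows were picked after product names were seen. The 3 members, the ACC oxidase homolog and both UDP-glycosyltransferase 74E2 copies lie to the right of 0 and the other 7 genes to the left.

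Likeness of pattern was measured as Pearson's r of log2 CPM over the 9 libraries, among the 112 other genes with a product name. It is a description, since the 9 libraries share 3 light intensities and 1 scaling. The genes most like ACC oxidase were UDP-glycosyltransferase 86A1 (Nitab4.5_0003524g0010, r = 0.995, at 0.932 CPM at light 50 and 29.0 at light 200), flavone 3'-O-methyltransferase 1 (Nitab4.5_0000725g0060, r = 0.994) and aspartate racemase (Nitab4.5_0002257g0010, r = 0.994). Their log2 changes were 4.22, 1.05 and 1.58 in the lower doubling and 0.75, 0.38 and 0.40 in the upper. Least like it was TLD domain-containing protein 1 (Nitab4.5_0001988g0020, r = -0.949). The genes most like GH3.10 were glutamine synthetase (Nitab4.5_0001650g0160, r = 0.924), the ACC oxidase homolog (r = 0.923) and alpha-glucosidase 2 (Nitab4.5_0000030g0360, r = 0.898), and least like it was ABA DEFICIENT 4 (r = -0.827). The genes most like the lipoxygenase were an alpha-1,4 glucan phosphorylase of the plastid (Nitab4.5_0000154g0300, r = 0.944), alpha-glucosidase 2 (r = 0.942) and ABC transporter C family member 14 (Nitab4.5_0002469g0080, r = 0.934), and least like it was chlorophyll a-b binding protein 16 (Nitab4.5_0000982g0200, r = -0.967). Among themselves the members had r = 0.836 for ACC oxidase with GH3.10, 0.909 for ACC oxidase with the lipoxygenase and 0.771 for GH3.10 with the lipoxygenase. After the group means were subtracted these were 0.494, -0.171 and 0.214.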

How the data were processed

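Leaf RNA was sequenced in 9 libraries; per the labels' protocols the kit was NEBNext Ultra RNA, which does not mark strand. CASAVA 1.7, HISAT and HTSeq are named by the submitters' processing notes. Build and annotation are not stated in labels or headers; identifiers begin with Nitab4.5. Raw counts, FPKM and mean normalised counts in the deposited table are the authors' values, as are its log2 changes and its p-values, raw and adjusted, per the file headers. Antisense reads, and reads of near-identical copies in this allotetraploid, cannot be told apart. The reference gene table matched 0 identifiers, and no sequences are printed.

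Library totals came from count, FPKM and length. Library sizes were set by the authors' size factors, solved from their mean normalised counts (largest relative error 4.98e-10) and combined over comparisons (within 0.188%). edgeR 4.0.16 in R 4.3.3 fitted the counts by group over all 9 libraries; filterByExpr kept 123 of 123 genes, and the fit was tested on simulated data. SE is the log2 change over the root of F. Median centring gives each library the same median ratio to the mean library; equal median levels give it the same median log2 count. Likeness used log2 CPM with 1 read added. Each pair of libraries within a group differed by more than counting error (chi-square over its degrees of freedom 23.6 to 102.4). Alternatives were TMM, RLE, library totals, median centring, equal median levels, no filter, DESeq2 1.42.0, pairwise fits, a replicate block and leaving out each library. TMM, RLE, median centring and equal median levels were computed on the 123 genes, a selection, and so take selected genes as their reference. Named genes were the members, the 3 most and 1 least alike to each, and name matches to lists. The members, the lists and the added scaling were chosen with earlier results of these data known.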

Additional observations from a re-analysis of the deposited data

Results flagged for a closer look

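ACC oxidase changed by different amounts in the 2 doublings of light by a test of the difference itself: the log2 change from light 100 to light 200 minus that from light 50 to light 100 was -1.34 ± 0.27 (SE; edgeR adjusted p = 0.0189). With the other 5 scalings it was -1.19 to -1.50 and was called under each (adjusted p = 0.00174 to 0.0251, edgeR). The genes of the table called were 3 with the authors' factors, 23 with TMM, 5 with library totals, 4 with equal median levels, 3 with median centring and 2 with RLE. Except for library totals, the other scalings take selected genes as their reference, so their number is not read as support. The ACC oxidase difference was not called without light 100 replicate 2 or light 200 replicate 2.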

How the results depend on the processing

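From light 50 to light 200 the 3 calls held with TMM, RLE, library totals, median centring, no filter, DESeq2, pairwise fits and the replicate block. In these fits 58 or 59 of the 123 genes were called higher. With equal median levels, added after seeing the data, 1 of 3 was called (GH3.10 0.66, lipoxygenase 0.36), 1 of 3 from light 50 to light 100 (GH3.10 0.75 and adjusted p = 0.0598, lipoxygenase 0.24 and adjusted p = 0.275, edgeR) and 0 of 3 from light 100 to light 200 (ACC oxidase 0.26, GH3.10 reversed to -0.095). Of all 123 genes, this scaling called 41, 32 and 14 higher and 64, 63 and 56 lower in these 3 comparisons. For light 200 against light 100, 2 of 3 were called with TMM, RLE, library totals or median centring, where the lipoxygenase had log2 changes of 0.50, 0.56, 0.42 and 0.51. Beside them 43, 45, 42 and 43 of the 123 genes were called higher. The cause was not tested.

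With 1 library left out, log2 changes from light 50 to light 200 were 2.23 to 2.46 for ACC oxidase, 0.83 to 1.71 for GH3.10 and 0.72 to 0.96 for the lipoxygenase, with 3 of 3 called (58 of the 123 genes were called higher). From light 50 to light 100 they were 1.74 to 1.97, 0.70 to 1.57 and 0.49 to 0.53, with 2 to 3 called (45 to 52 genes called higher). From light 100 to light 200 they were 0.39 to 0.59, -0.0063 (without light 100 replicate 3) to 0.29 and 0.21 to 0.45, with 0 to 2 called (13 to 30 genes called higher). The difference of doublings was -1.47 to -1.20, -1.44 to -0.56 and -0.30 to -0.056, with 0 to 2 called. The ratios, as light 200 minus light 50, were 0.73 to 1.40 for ACC oxidase to GH3.10, 1.38 to 1.72 for ACC oxidase to lipoxygenase and 0.090 to 0.88 for GH3.10 to lipoxygenase.

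Same-numbered libraries deviated together in some pairs of groups and not in others (correlations from -0.46 to 0.55). Of the 9 libraries, 4 correlated best with their own number. With no steady pattern, the numbers were not read as pairs. With the replicate block the changes from light 50 to light 200 were 2.34, 1.21 and 0.84, and no call of a member changed. Permuted within replicate numbers, the ratios had adjusted p of 0.0833, 0.0833 and 0.389 (exact permutation). That permutation allows fewer assignments than the unrestricted one, so its smallest possible p is larger, and these misses are not read as a result. Over the whole table the difference of doublings was called for 3 genes with the authors' factors, 23 with TMM, 9 with DESeq2, 6 with the block, 5 with library totals and 2 with RLE, and for 1 to 14 with 1 library left out.

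Of the 3 genes most alike to ACC oxidase, 1 was among the top 3 by Spearman correlation and 1 after subtracting group means; for GH3.10 these were 1 and 1, and for the lipoxygenase 3 and 0. GH3.10 rests on 32 to 154 reads per library, and its values carry the counting error of such depths beside the spread between libraries.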
